A study of Mus musculus with 217 samples.

Results

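Growth plate chondrocytes that carried aggrecan transcripts but no detectable Col10a1, Ihh or Ibsp are described here. They were 29 distinct single-cell expression profiles from the mouse tibial growth plate, 15.5% of all profiles (95% exact Clopper-Pearson interval 10.6 to 21.5%) and 16.5% of the profiles with aggrecan (11.3 to 22.8%). A profile belonged to them when Acan, the gene of aggrecan, was at least 5 on the deposited log2 scale and Col10a1, Ihh and Ibsp were each below 1. They are called Col10a1-negative chondrocytes below, and the other profiles with Acan of at least 5 are called the remaining chondrocytes. The latter comprised 69 profiles with Col10a1 but neither Ihh nor Ibsp, 41 with Ihh but not Ibsp and 37 with Ibsp. A further 11 profiles had Acan under 5 and were not compared.

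The growth plates came from the tibiae of C57/BL mice, wild type and 7 days old, by microdissection, and strain, genotype, tissue and age are shared by every cell. No animal, litter or plate is named. The cells therefore stand for a single sample, and no statistical test between classes could be run. Each SD is a spread over cells, and each interval covers counting error only. Differences of means on the log2 scale are therefore descriptions, with 1 taken as the size that is counted. Sequencing depth is unknown, because the values had been scaled before deposit.

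In a growth plate, resting chondrocytes give rise to columns of flat dividing cells, which leave the cell cycle, enlarge through a prehypertrophic stage and become hypertrophic next to the bone front. Aggrecan is the large proteoglycan of cartilage and is made through most of this sequence. Col10a1 encodes the collagen of hypertrophic cartilage, Ihh encodes the hedgehog ligand of prehypertrophic cells, and Ibsp encodes bone sialoprotein, a protein of mineralizing matrix. Cells without these transcripts would be looked for in the resting and columnar zones, where Ucma and Sfrp5 are used as markers of resting or early cells. Ucma encodes a secreted cartilage protein and Sfrp5 an inhibitor of WNT ligands.

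The members were chosen by the values of these genes. Acan ran from 6.67 to 10.43 in them, so that none lay near its threshold, and the 2 profiles that met the other conditions with Acan under 5 had it at 0. Col10a1 was exactly 0 in 21 of the 29 and reached 0.74 in the highest. The lowest Col10a1 value outside, among profiles that met the other conditions, was 1.22, followed by 1.39. Ihh had its highest value inside at 0.06 and its lowest outside at 2.56, and Ibsp at 0.60 and 1.05. A set of 10 of the remaining chondrocytes also had Col10a1 below 1 and were outside through Ihh or Ibsp. Among the 29 profiles, 6 were averages of nearly identical columns, which were treated as repeats of one cell, and 23 came from 1 column each.

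The Col10a1-negative chondrocytes held fewer detected genes than the rest. A gene counts as detected when its value, taken back from the log2 scale, is 1 or more. They had a median of 2954 detected genes (mean 2924 ± 461 SD, range 2106 to 3735), against 3542 in the remaining chondrocytes (mean 3497 ± 558 SD, range 1326 to 4994). The ranges overlapped: 97 of the remaining chondrocytes lay within the range of the Col10a1-negative ones. Over all profiles with aggrecan, Col10a1 and the number of detected genes had a Spearman's rho of 0.33, given as a description across cells of 1 sample. A missing transcript and a failed capture look the same in these values, and their shares in the rule cannot be told apart. Differences are over all profiles unless stated. For the main genes and lists they were also taken with the number of detected genes fitted together with the class, and within the middle range of detected genes (3017 to 3798), which kept 12 Col10a1-negative and 77 remaining chondrocytes with medians of 3308.5 and 3472.

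**Figure D1:**
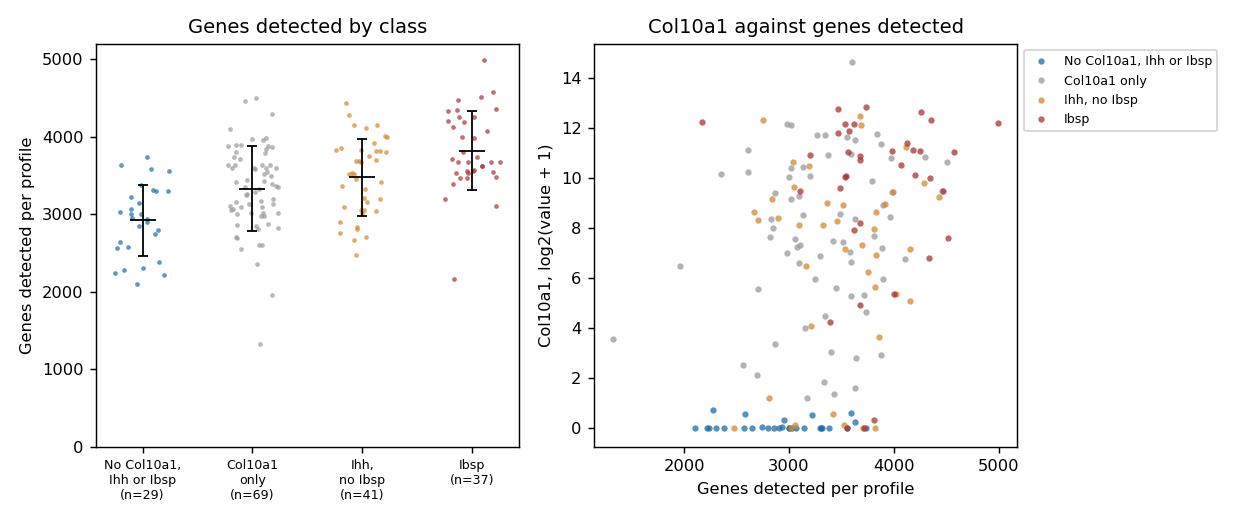
Left, genes detected per profile in the Col10a1-negative chondrocytes (n = 29) and in 3 classes of remaining chondrocytes: those with Col10a1 but neither Ihh nor Ibsp (n = 69), with Ihh but not Ibsp (n = 41) and with Ibsp (n = 37). Points are profiles, and bars are the mean ± SD. Right, Col10a1 on the log2 scale against genes detected for the same profiles; the Col10a1-negative profiles lie between 2106 and 3735 detected genes, below the highest profiles of the other classes but within their range.

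A median of 19 of the 23 measured chondrocyte genes outside the rule were detected per Col10a1-negative profile, with a range of 14 to 21. Sox9, the transcription factor that specifies chondrocytes, ran from 7.79 through a median of 9.52 to 11.70 in the 29 profiles, and from 2.34 through 8.89 to 11.21 in the remaining chondrocytes. It was thus detected in every profile of both groups, and its lowest values lay among the remaining chondrocytes. The mean of Sox9 was higher by 1.12 (9.57 ± 1.0 SD against 8.46 ± 1.53), by 0.85 with detected genes fitted and by 0.91 within the middle range. Col9a1, which encodes a collagen on the surface of cartilage fibrils, was also detected in all 29, from 8.55 through a median of 10.17 to 10.81. The remaining chondrocytes spanned 8.48, 10.32 and 13.10 for it, so that the groups overlapped almost fully. The matrix genes Lect1 (chondromodulin), Hapln1 (link protein of aggrecan), Matn3 (a matrilin) and Epyc (a small proteoglycan) differed by 0.16, -0.29, -0.10 and 0.16, and each was detected in 29 of 29.

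Over the 23 measured genes of the chondrocyte list other than Acan, the median difference was -0.10, beside -0.16 over all 9735 genes outside the rule. Of the 23, 9 were higher and 14 lower, while over all genes 29.7% were higher and 70.3% lower. With detected genes fitted, 49.6% of all genes were higher and 50.4% lower. Over all profiles, Sox9 was the 1 gene higher by at least 1, and Chad and Wwp2 were the 2 lower by at least 1. Of all genes, 0.709% were higher and 6.73% lower by at least 1. No gene of the list, Sox9 included, was higher by at least 1 against the class with Col10a1 alone or against the Ihh class. Chad, which encodes the cell-binding matrix protein chondroadherin, averaged 6.61 ± 3.90 SD against 8.59 ± 2.81, and its difference was -1.38 with detected genes fitted and -1.93 within the middle range. Wwp2, the gene of a ubiquitin ligase, differed by -1.19, and by -0.46 with detected genes fitted, which is under the size of 1. Comp, which encodes a cartilage matrix protein of mature chondrocytes, differed by -0.95 (8.74 ± 1.19 SD against 9.69 ± 1.14), and by -0.62 with detected genes fitted. Col2a1 was low in these files for all chondrocytes, and it was detected in 7 of the 29 (24.1%) and in 20.4% of the remaining chondrocytes. Sox6, a transcription factor partner of Sox9, was detected in none of the 29 and in 1.36% of the rest.

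Markers of blood, vessel, muscle and macrophage cells were low or absent, whereas genes shared with fibroblasts and osteoblasts were not. The sum of back-transformed values over the list, with its range, was 0 to 10.8 in the Col10a1-negative profiles for the 1 measured endothelial gene (Pecam1, detected in 2 of 29), 0 to 460 for 6 macrophage and osteoclast genes and 0 to 203.6 for 3 muscle and tendon genes. The same sums reached 15.7, 612 and 206.3 in the remaining chondrocytes. Cd79a, the 1 measured blood and lymphoid gene, reached 14.5 against 9.84. Of the 7 marrow stromal genes a median of 1 was detected per profile in both groups. Of the 11 perichondrial and fibroblast genes a median of 4 was detected, and their sum ran from 93.2 to 4094 (median 1011) against 7.6 to 3988 (median 971). The 19 osteoblast genes summed to 1458 to 10705 (median 4395) against 1813 to 24543 (median 6221), with a median of 5 and 6 genes detected per profile. The 5 measured articular genes summed to 0 to 1101 against 0 to 294, with a median of 1.11 against 7.67. Within the osteoblast list, Col1a2, a chain of type I collagen, was detected in 27 of 29 and in 87.8% of the rest. Its partner chain Col1a1 was detected in none of the 29 and in 16.3% of the rest, and Ifitm5 and Dmp1, genes of bone-forming cells, in none against 18.4% and 8.16%. The part of these cell types in the other differences was not tested.

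Ucma and Sfrp5 were more often present, but not in every profile. Ucma spanned 0, 4.03 and 7.26 (lowest, median and highest) in the Col10a1-negative chondrocytes and 0, 1.82 and 6.18 in the remaining ones. It was detected in 23 of 29 (79.3%, interval 60.3 to 92%) and in 82 of the remaining chondrocytes (55.8%, 47.4 to 64%). Its mean was 3.28 ± 2.08 SD against 1.93 ± 1.93, a difference of 1.35, which was 1.55 with detected genes fitted and 0.91 within the middle range. Sfrp5 was detected in 13 of 29 (44.8%, 26.4 to 64.3%) and in 53 of the remaining chondrocytes (36.1%, 28.3 to 44.4%), and these intervals overlap. It spanned 0, 0 and 8.74 against 0, 0 and 8.23, with a mean difference of 0.83 (2.47 ± 3.07 SD against 1.64 ± 2.38).

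The remaining chondrocytes were not devoid of these markers. Of the 3 classes among them, the Ihh class had the next highest share with Ucma (70.7%), followed by the class with Col10a1 alone (53.6%) and the Ibsp class (43.2%). Sfrp5 was found in 41.5%, 39.1% and 24.3% of them. Within the Col10a1-negative chondrocytes, 11 profiles held both genes, 12 held Ucma alone, 2 held Sfrp5 alone and 4 held neither. A strong signal of both, at 5 or more, was seen in 1 of the 29 and in 3 of the remaining chondrocytes.

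The resting zone list as a whole did not follow Ucma and Sfrp5. Of its 20 measured genes, Ucma and Sfrp5 included, 7 were higher and 13 lower. The median difference was -0.10, beside -0.16 and 70.3% lower over all genes. With detected genes fitted, 9 were higher and 11 lower. The genes with the most negative differences were Cd200, Foxa3 and Nt5e. Cd200 encodes a surface protein that dampens immune cells, and it is used together with Nt5e, the gene of the surface enzyme CD73, to sort skeletal stem and progenitor cells. Cd200 was detected in 3 of 29 (10.3%, interval 2.2 to 27.4%) and in 87 of the remaining chondrocytes (59.2%, 50.8 to 67.2%), and it averaged 0.57 ± 1.95 SD against 3.57 ± 3.32. Its difference of -3.00 was -2.15 with detected genes fitted and -3.05 within the middle range. Nt5e differed by -1.38, and by -0.85 with detected genes fitted, and Foxa3, a forkhead transcription factor, by -2.37 (detected in 8 of 29 and in 77.6% of the rest). Among profiles without Ihh and Ibsp, Cd200 and Foxa3 were detected more often at high than at low Col10a1, as given below. Frzb, another secreted WNT antagonist, differed by -0.88 over all profiles but by -0.04 with detected genes fitted and by 0.26 within the middle range. Gas1, Efemp1, Mfap5 and Axin2 were detected in none of the 29. The list of columnar proliferative genes, with 15 measured, had a median difference of -0.18, with 6 higher and 9 lower. With detected genes fitted its median was 0.02, with 8 higher and 7 lower.

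Prehypertrophic genes were lower as a list, but one of them, Panx3, was present throughout. Over its 13 measured genes the median difference was -1.03, and -0.87 relative to the median of all genes, with 10 lower and 3 higher. Of the 13, 7 were lower by at least 1 and none was higher by at least 1. Over all 9735 genes, 655 were lower by at least 1 (6.73%) and 69 were higher by at least 1 (0.709%). With detected genes fitted, 2.06% of all genes were lower by at least 1 and 2.61% higher by at least 1. In that fit the prehypertrophic median was -0.66, with 9 genes lower and 4 higher. Of the 13, 3 were then lower by at least 1. Within the middle range, 4.86% of all genes were lower and 5.3% higher by at least 1. Higher genes were thus 9.53% of those past 1 over all profiles, 55.8% with detected genes fitted and 52.2% within the middle range. Against single classes, the shares higher and lower by at least 1 were 0.955% and 5.02% for the class with Col10a1 alone, 0.719% and 7.9% for the Ihh class, and 1.62% and 15.3% for the Ibsp class. These shares describe the same contrast as the rule, and the members were chosen within it.

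Mef2c and Foxa2, both transcription factors that drive hypertrophy, were detected in none of the 29, which allows a share of up to 10.3% when 3 counts are taken as the limit and of 11.9% by the exact interval. Mef2c was detected in 69 of the remaining chondrocytes (46.9%, interval 38.7 to 55.3%) and Foxa2 in 54 (36.7%, 28.9 to 45.1%). Mef2c was at most 0.95 in the Col10a1-negative profiles and reached 6.09 elsewhere, with a difference in means of -1.51. Its difference was -1.07 with detected genes fitted and -1.28 within the middle range. Foxa2 was at most 0.56 against 8.19 and differed by -1.65, by -1.39 and by -1.86 in the same order.

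Bmp6, a BMP ligand of prehypertrophic and hypertrophic cells, was detected in 13 of 29 (44.8%, 26.4 to 64.3%) and in 78.2% of the remaining chondrocytes (70.7 to 84.6%). It spanned 0, 0.36 and 7.90 against 0, 5.26 and 9.0. Its mean was lower by 1.69 over all profiles (2.72 ± 3.08 SD against 4.41 ± 2.80), but the difference was -0.75 with detected genes fitted, under the size of 1. Panx3, a pannexin channel of prehypertrophic cells, was detected in 29 of 29 and in 99.3% of the remaining chondrocytes. It spanned 1.83, 9.36 and 11.71 in the Col10a1-negative profiles and 0, 10.74 and 12.58 in the remaining ones. The difference in means of -1.47 (8.91 ± 2.17 SD against 10.38 ± 1.72) was -0.89 with detected genes fitted and -1.27 within the middle range. The SD between columns treated as repeats was 0.14 for Panx3 and 0.45 for Bmp6. It was 0.21 for Foxa2 and Cd200, 0.27 for Mef2c, 0.29 for Sfrp5, 0.51 for Ucma and 0.70 for Sox9. For Spry2 and Foxn2, which are named below, it was 0.76 and 0.88.

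**Figure D2:**
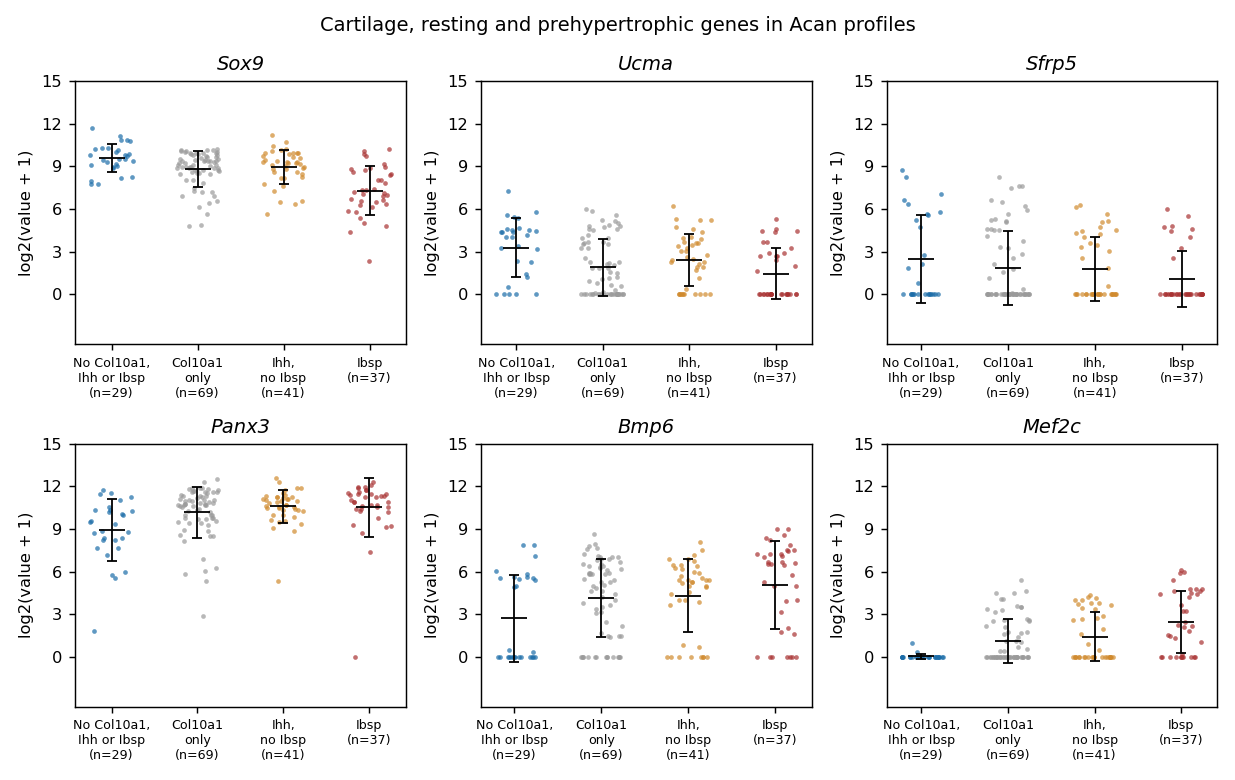
Levels on the log2 scale of Sox9, Ucma, Sfrp5, Panx3, Bmp6 and Mef2c in the Col10a1-negative chondrocytes (n = 29) and in the classes with Col10a1 alone (n = 69), with Ihh but not Ibsp (n = 41) and with Ibsp (n = 37). Points are profiles, and bars are the mean ± SD. Ucma is at or above 1 in 23 of the 29 Col10a1-negative profiles, Panx3 in all 29 and Mef2c in none.

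The genes with the largest negative differences outside the rule were Lmcd1, Ugp2, Atf3, Gramd2, Slc38a4, Cd200, Tgm2, Eps8l2, Lgmn, Lxn, Slc13a5, Med21, Tuba1a, Ypel5 and Trappc1, with values from -3.67 to -2.47. Lmcd1, the gene of a LIM domain cofactor of transcription, spanned 0, 0 and 8.49 in the Col10a1-negative profiles and 0, 6.79 and 10.41 in the remaining ones. It was detected in 9 of 29 (31%, 15.3 to 50.8%) against 83.7% of the rest (76.7 to 89.2%), so most Col10a1-negative profiles lacked it while 9 carried it at a mean of 6.10. Its difference of -3.67 was -2.73 with detected genes fitted and -3.56 within the middle range.

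Ugp2 encodes the enzyme that makes UDP-glucose, from which the sugar chains of proteoglycans and glycogen are built. It spanned 0, 3.77 and 10.04 against 0, 8.20 and 11.08, and it was detected in 18 of 29 (62.1%) against 96.6% of the rest. Its difference was -3.63 over all profiles (3.93 ± 3.55 SD against 7.55 ± 2.44), -3.05 with detected genes fitted and -3.52 within the middle range. Tgm2, which encodes a transglutaminase that cross-links matrix proteins, was detected in 16 of 29 and in 97.3% of the rest (3.07 ± 3.26 SD against 6.04 ± 1.94). Slc38a4, an amino acid transporter gene of the hypertrophic list, was detected in 12 of 29 and in 88.4% of the rest, with a difference of -3.00. Gramd2 was detected in 8 of 29 and in 78.2% of the rest, with a difference of -3.15. In all of these genes the 2 groups overlapped, since some Col10a1-negative profiles carried each of them at the level of the remaining chondrocytes.

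**Figure D3:**
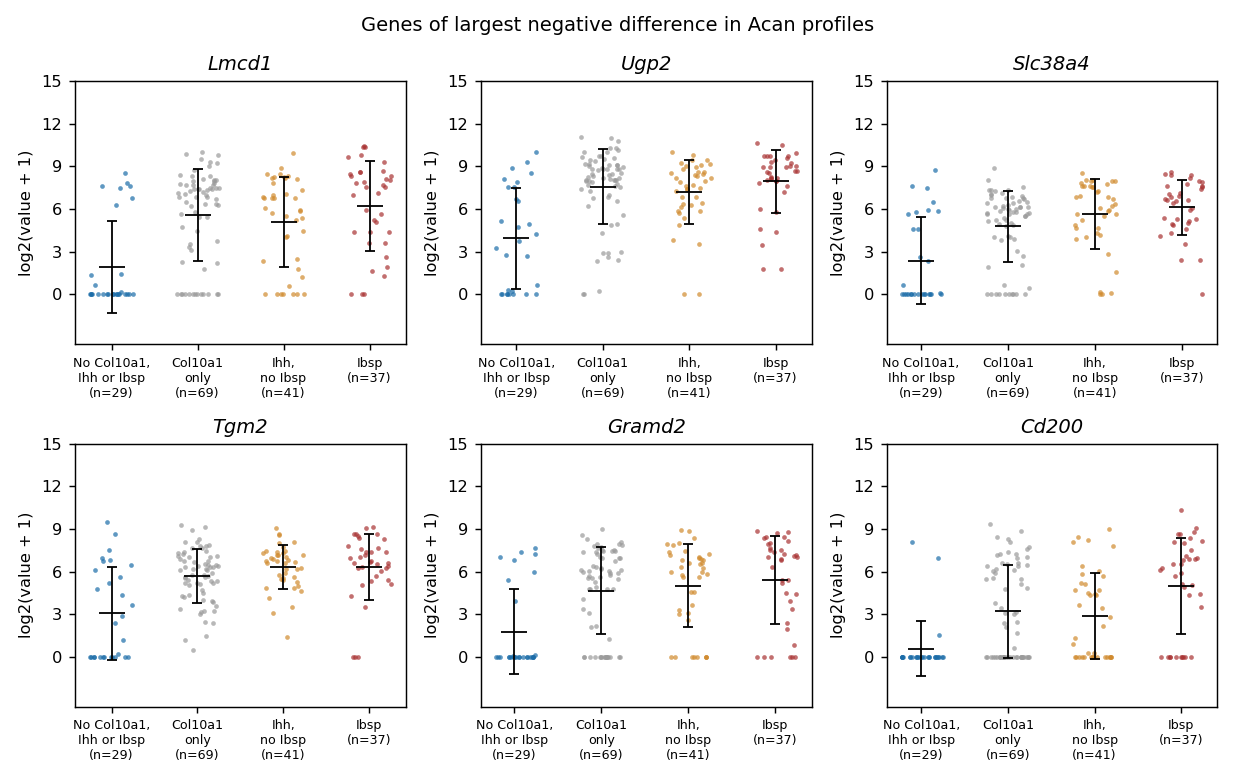
Levels on the log2 scale of Lmcd1, Ugp2, Slc38a4, Tgm2, Gramd2 and Cd200 in the Col10a1-negative chondrocytes (n = 29) and the classes with Col10a1 alone (n = 69), with Ihh but not Ibsp (n = 41) and with Ibsp (n = 37). Points are profiles, and bars are the mean ± SD, which can reach below 0 where many profiles are at 0. In the Col10a1-negative class many points lie at 0 and some at the level of the other classes, with values between these in Ugp2 and Tgm2.

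Some of these genes also differed between low and high Col10a1 levels among chondrocytes without Ihh and Ibsp, where the number of detected genes was nearly the same. The 69 profiles of that class were divided at a Col10a1 value of 7, a bound chosen after the data were seen. This gave 26 profiles below it and 43 at or above it, with medians of 3340 and 3370 detected genes. Lmcd1 averaged 1.92 in the Col10a1-negative chondrocytes, 4.57 ± 3.48 SD at low Col10a1 and 6.18 ± 2.93 at high Col10a1. Ugp2 went from 3.93 to 6.41 ± 3.17 and 8.25 ± 2.01 in the same order. Cd200 was detected in 10.3%, 30.8% and 69.8% of profiles, Mef2c in 0%, 19.2% and 51.2%, and Foxa2 in 0%, 11.5% and 46.5%. Foxa3, which was placed in the resting zone list here, was detected in 27.6%, 57.7% and 79.1%. Tgm2 and Gramd2 differed little between the last steps, with means of 5.66 and 5.75 for Tgm2 and of 4.51 and 4.74 for Gramd2. Ucma averaged 3.28, 1.98 and 1.86, and Sfrp5 averaged 2.47, 2.54 and 1.43. Sfrp5 was detected in 44.8%, 50% and 32.6%, so that its share was highest at low Col10a1 and not in the Col10a1-negative chondrocytes.

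The genes with the largest positive differences among those detected in at least 50% of the Col10a1-negative profiles were smaller in effect, from 1.86 to 1.30: Cstf2t, Arglu1, Srxn1, Ppap2b, Ccnc, Sox11, Agfg1, Nmd3, Foxn2, Nop2, Ucma, Dtd1, Gtl3, Srsf2 and Nrp1. Arglu1, which encodes a nuclear protein involved in splicing, spanned 3.38, 7.21 and 9.38 against 0, 6.26 and 8.95, and Srxn1, the gene of the antioxidant enzyme sulfiredoxin, spanned 3.78, 7.74 and 10.50 against 0, 6.86 and 9.80. Both were detected in 29 of 29. Sox11, a transcription factor of immature skeletal cells, was detected in 21 of 29 and in 65.3% of the rest, at 5.32 ± 3.41 SD against 3.70 ± 3.02. Its difference of 1.62 was 2.02 with detected genes fitted and 3.16 within the middle range. Against the class with Col10a1 alone, the difference was 1.27 for Arglu1 and 0.30 for Spry2, a feedback inhibitor of FGF signalling that was higher by 1.07 against all remaining chondrocytes (7.22 ± 1.49 SD against 6.15 ± 2.63). Lmna, which encodes lamins A and C of the nuclear envelope, was higher by 1.26 (9.61 ± 0.70 SD against 8.35 ± 1.72), and by 0.57 against the class with Col10a1 alone.

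The hypertrophic list without the genes of the rule had 16 measured members and a median difference of -0.43, with 12 lower and 4 higher, beside 70.3% lower over all genes. The median was -0.15 with detected genes fitted, with 10 lower and 6 higher. Slc38a4, Ptgis and Foxa2 were the 3 lower by at least 1. Ptgis, the gene of prostacyclin synthase, averaged 0.97 against 3.17, with a difference of -2.20 that was -1.55 with detected genes fitted and -0.73 within the middle range. Ank, which encodes an exporter of pyrophosphate, an inhibitor of mineralization, was the 1 higher by at least 1, at 3.76 ± 3.45 SD against 2.56 ± 2.90 (detected in 18 of 29 and in 48.3% of the rest). Its difference of 1.20 was 0.53 when repeated columns were kept apart. Runx2, a regulator of hypertrophy, was detected in 6 of 29 (20.7%, 8.0 to 39.7%) and in 12 of the rest (8.2%, 4.3 to 13.8%), and Spp1 (osteopontin) in 7 of 29 and in 24.5% of the rest. Among 23 genes of mineralization and phosphate handling outside the rule the median was -0.43, with 18 lower, and -0.15 with detected genes fitted, with 14 lower. The most negative difference was that of Smpd3, which encodes a sphingomyelinase required for cartilage and bone mineralization (4.92 ± 2.99 SD against 7.34 ± 2.0, a difference of -2.42).

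Genes of BMP signalling had a median difference of -0.51 over 24 genes, with 22 lower and 2 higher, beside 70.3% lower over all genes. By role, the ligands Bmp6 and Bmp2 differed by -1.69 and -1.51, the receptor Bmpr2 by -1.05, the inhibitors Nog (noggin) and Chrdl1 by -1.26 and -1.50, and the response genes Id1 and Id3 by -0.80 and -1.01. With detected genes fitted the median was -0.09, with 16 lower and 8 higher. Nog was then at -1.24, whereas Bmp2 was at -0.55, Bmpr2 at -0.61, Id1 at -0.37 and Id3 at -0.02, and that of Chrdl1, -1.01 with detected genes fitted, was 0.43 within the middle range. In the hedgehog list, where Ihh itself was part of the rule, the response genes Ptch1 and Gli1 were detected in 7 of 29 and 2 of 29, against 28.6% and 6.8% of the rest, and Smo, the signal transducer of the pathway, differed by -1.04, and by -0.69 with detected genes fitted. WNT genes had a median of -0.29 over 27 genes, and of -0.05 with detected genes fitted, with Wnt4, a WNT ligand of prehypertrophic cells, at -1.75 (detected in 11 of 29 and in 72.1% of the rest). FGF pathway genes had a median of -0.21 over 10 genes, and of 0.06 with detected genes fitted, and Fgfr3 was detected in none of the 29 and in 8.84% of the rest.

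Cholesterol synthesis genes had a median of -0.69 over 22 genes, with 19 lower and 5 lower by at least 1, beside 70.3% and 6.73% over all genes. With detected genes fitted the median was -0.21, with 16 lower and 1 lower by at least 1. Lss, which encodes the enzyme that closes the sterol rings, differed by -1.71, and Sc5d, a late desaturase, by -1.32 (-0.80 with detected genes fitted), whereas Sqle, which encodes squalene epoxidase, an earlier enzyme of the pathway, differed by -0.01. Glycolysis and hypoxia genes had a median of -0.42, with 23 of 24 lower, and of -0.17 with detected genes fitted, with 18 of 24 lower. Slc2a1, the gene of the main glucose transporter, averaged 4.63 against 6.67, a difference of -2.04 that was -1.28 with detected genes fitted, and Pgk1 and Eno1, which encode glycolytic enzymes, differed by -0.12 and -0.05. Genes of proteoglycan chain synthesis and sulfation had a median of -0.21 over 29 genes with 26 lower. With detected genes fitted it was -0.04, with 16 lower and 13 higher. Papss1, which makes the sulfate donor, differed by -1.73. Ctgf, a matricellular growth factor gene of the TGF-beta and activin list, differed by -2.29 (3.83 against 6.12). Inhba, which encodes a subunit of activin A, was higher by 1.21 in the same list. Its mean was 6.03 in the Col10a1-negative chondrocytes, 7.28 at low and 3.94 at high Col10a1.

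**Figure D4:**
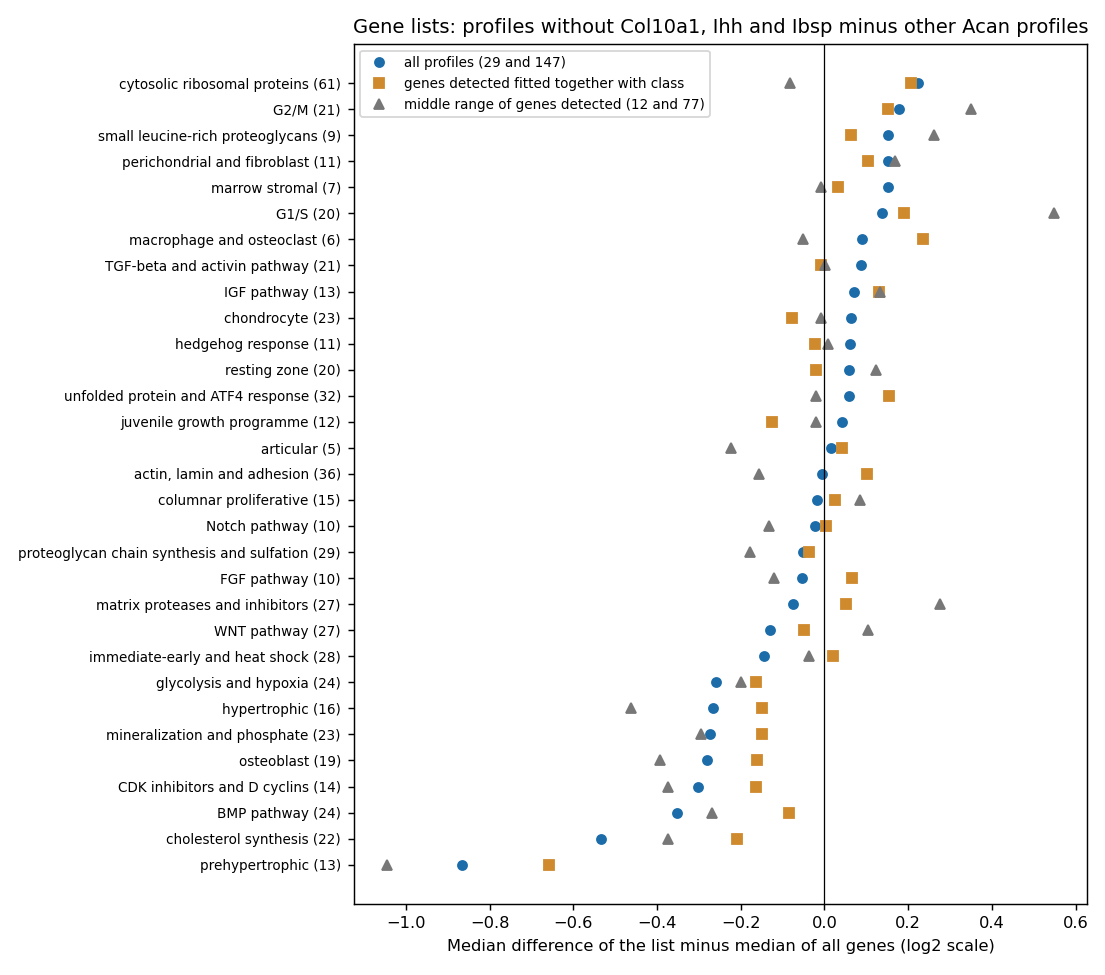
Median difference of each gene list with at least 5 measured genes (number in brackets), Col10a1-negative minus remaining chondrocytes, after the median of all genes was subtracted, on the log2 scale. Circles show all profiles, squares the fit with detected genes, and triangles the middle range of detected genes (12 and 77). The prehypertrophic list lies farthest to the left under each, and the cholesterol list is next to it over all profiles.

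Immediate-early genes are known to respond to tissue dissociation. Over 28 immediate-early and heat shock genes the median difference was -0.30, with 20 lower and 7 lower by at least 1, beside 70.3% and 6.73% over all genes. Atf3 was detected in 8 of 29 and in 76.9% of the rest and differed by -3.27, -2.33 with detected genes fitted and -1.95 within the middle range. Fos averaged 4.45 ± 3.27 SD against 6.53 ± 3.17, and its difference of -2.08 was -0.76 with detected genes fitted. Egr1 differed by -0.23 and Ier3 was higher by 1.16. The list's median with detected genes fitted was 0.02, with 13 lower and 1 lower by at least 1. The part of this response in the other differences was not tested.

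A median of 3 of the 21 measured G2/M genes and 3 of the 20 G1/S genes were detected per Col10a1-negative profile, against 4 and 4 in the remaining chondrocytes. Of the 29, all held at least 1 G2/M gene and 3 held no G1/S gene. The median difference was 0.02 for the G2/M and -0.02 for the G1/S list, and 0.15 and 0.19 with detected genes fitted. In that fit 14 of 21 G2/M and 18 of 20 G1/S genes were higher, beside 49.6% of all genes. Within the middle range 15 and 19 were higher, with medians of 0.29 and 0.48, beside 43.8% of all genes. Mki67, a marker of dividing cells, was detected in 2 of 29 (6.9%, 0.85 to 22.8%) and in 13 of the rest (8.8%, 4.8 to 14.6%). At least 5 of the 21 measured G2/M genes were detected in 6 of 29 (20.7%, 8.0 to 39.7%) and in 32 of the rest (21.8%, 15.4 to 29.3%), and at least 5 of the 20 G1/S genes in 7 of 29 (24.1%, 10.3 to 43.5%) and in 49 of the rest (33.3%, 25.8 to 41.6%). The intervals are wide and do not show that the groups are alike. One Col10a1-negative profile held 16 of the 21 G2/M and 18 of the 20 G1/S genes, whereas no other held more than 6 and 9. Its Ucma was 4.5. With 3592 detected genes, this profile was 1 of the 12 Col10a1-negative profiles within the middle range, and it was also part of the fit. Whether the higher G2/M and G1/S medians hold without it was not tested. Among cell cycle inhibitors, Cdkn1a (p21) was detected in 28 of 29 and in 95.9% of the rest, and Cdkn1b (p27) in 8 of 29 and in 47.6%. Cdkn2d was detected in none of the 29 and in 21.8% of the rest, and Cdkn1c (p57) in 1 of 29 and in 23.8% of the rest.

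The Col10a1-negative chondrocytes correlated with each other about as closely as with the other classes. Over 5381 genes without those of the rule, pairs of them correlated at a mean r of 0.502 (SD 0.034), against 0.507 with the class of Col10a1 alone, 0.512 with the Ihh class and 0.492 with the Ibsp class. Of the 10 nearest profiles of each, a mean of 1.79 ± 0.94 SD were Col10a1-negative (17.9%, with 0 to 3 per profile), beside 16.5% of all profiles with aggrecan, and 35.9% had Col10a1 alone (pool 39.2%), 34.1% Ihh (23.3%) and 12.1% Ibsp (21%). In the other classes the Col10a1-negative share of the 10 nearest was 6.4%, 5.9% and 4.1%, in the same order. These profiles share a sample and scaling, and correlation between profiles also depends on the number of detected genes.

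The genes that varied most within the 29 profiles, among those detected in 20 to 80% of them, were Tnfaip6, Plet1, Zfp948, S100a3, Id2, Acta2, F3 and Gprc5a, with SDs of 4.53 down to 3.88. Tnfaip6, which encodes a hyaluronan-binding protein, was detected in 18 of 29 at a mean of 5.13 ± 4.53 SD over all 29, and F3, the gene of tissue factor, in 14 of 29 at 3.46 ± 3.96. Acta2, which encodes smooth muscle actin, was detected in 10 of 29 and in 22.4% of the rest, at 2.68 ± 3.98 SD against 1.46 ± 3.03. Among juvenile growth genes, H19, an imprinted RNA, was detected in 29 of 29 at 7.72 ± 2.09 SD, against 7.15 ± 2.61 elsewhere, and Hmga2, a chromatin protein gene of growing tissue, in 20 of 29 at 4.72 ± 3.47 against 4.48 ± 3.11.

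**Figure D5:**
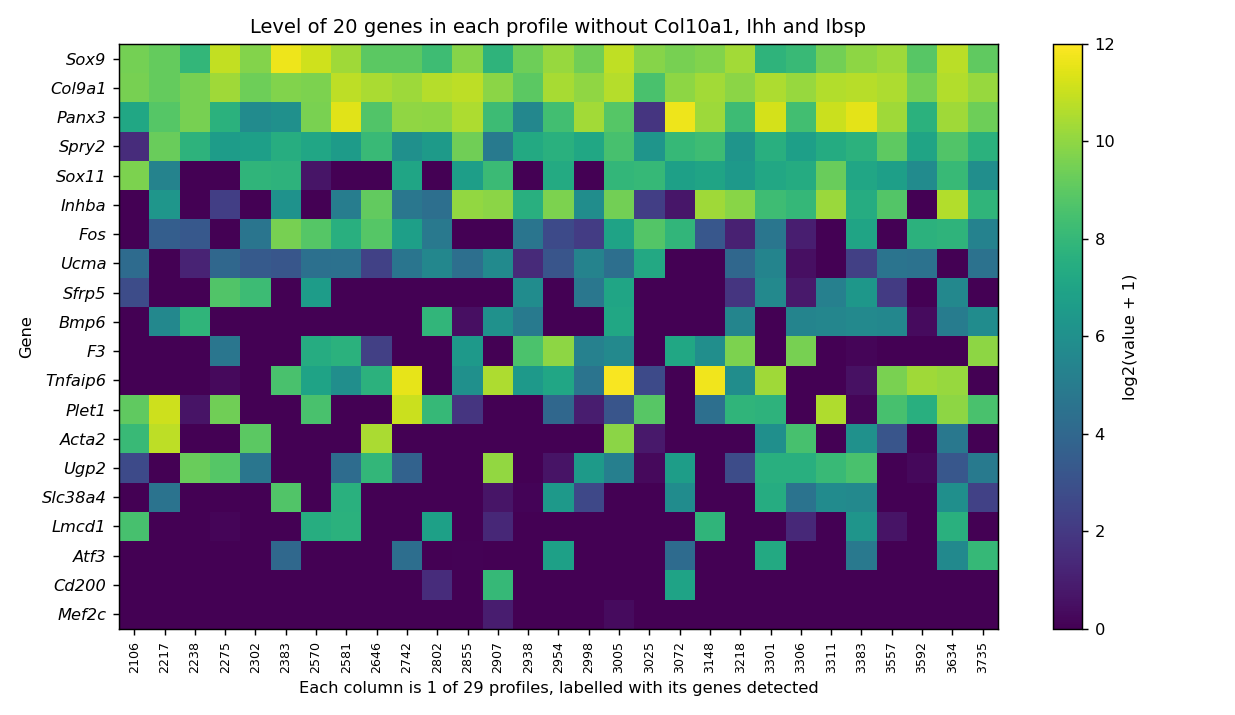
Levels on the log2 scale (colour, 0 to 12) of 20 genes in each of the 29 Col10a1-negative chondrocytes, ordered by genes detected from 2106 to 3735. Sox9, Col9a1 and Panx3 are seen in every column and Mef2c in none above 0.95, while Ucma, Sfrp5, Bmp6, F3, Tnfaip6, Plet1 and Acta2 are on in some columns and off in others.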

How the data were processed

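One table of log2 expression values was deposited by the authors, with 1 column for each of 217 cells and 9739 named genes. Per the submitters' processing notes, TopHat and the mouse genome build mm10 were used. For the quantifier, the annotation and the unit, the sources used here name nothing. Per the labels' protocols, cDNA was made with SMARTer chemistry and libraries with Nextera XT. Back-transformed totals ran from 394406 to 616257, so depth had been scaled. A pseudocount of 1 was inferred. Each gene is above 0 in at least 10 columns. The 1 row without a name was left out.

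Columns correlating above 0.95 were averaged (52 columns in 23 sets). The highest correlation of any pair not above that bound was 0.876. Column 204, called the mixed column below, was left out by a fixed rule. No doublet caller was run. The members and the 34 gene lists were chosen with earlier results of these data known. For each gene the difference of mean log2 values was taken, with no test. The fit with detected genes was a least-squares model of class and detected genes per profile. Shares have 95% exact Clopper-Pearson intervals. Named genes were the 15 highest and 15 lowest differences (detected in at least 50% of the group where higher), the 10 of each after the fit, the 5 highest and lowest of a list, 8 of highest SD within the 29, and a fixed set. Id1, Id3, Egr1, Col1a1, Dmp1, Sox6, Axin2, Efemp1 and Mfap5, and the genes picked in the closing section, were named after their values were seen. Some genes are not reported here. The steps ran in Python 3.11.15 with pandas 2.3.3, NumPy 2.4.6, SciPy 1.17.1 (intervals), NetworkX 3.6.1 (repeat sets) and matplotlib 3.10.9, and were tested on simulated data.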

Additional observations from a re-analysis of the deposited data

How the results depend on the processing

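The alternatives were columns kept apart, the mixed column kept in, other bounds for Col10a1 and Acan, no Ihh or Ibsp condition, a narrower comparison group, detected genes fitted or restricted, fewer profiles or genes, other detection limits, upper-quartile scaling, a pseudocount of 0.1 and, chosen after the data were seen, the first column of each repeat set. The shares of genes past 1 depended on them. Genes higher by at least 1 were 0.709% of those compared, and 1.16% with Acan of at least 8, 2.61% with detected genes fitted, 5.3% within the middle range, 1.85% without the 10% of profiles with fewest genes, 0.298% after upper-quartile scaling, 1.94% with a pseudocount of 0.1 and 1.25% over genes detected in at least 20% of profiles. Genes lower by at least 1 were 6.73%, and 2.06%, 18.1% and 12.1% with detected genes fitted, a pseudocount of 0.1 and the genes detected in at least 20%. Of the 655 lower genes, 200 were lower by at least 1 with detected genes fitted. Within the middle range, which leaves 12 of the 29 profiles, 3 of the genes reported here that differed by at least 1 changed direction: Adamts1 (0.72), Chrdl1 (0.43) and Impad1 (0.27). The cause was not tested. The prehypertrophic median stayed between -1.42 and -0.66 in 14 settings, and Lmcd1 between -5.33 and -2.73. The sign of Ucma, Sfrp5, Sox9, Panx3, Mef2c, Foxa2 and Cd200 was kept in all 14. The median of all genes ran from -0.32 to -0.0025. Of the lists with a median in the text, those of resting, columnar, WNT, FGF, immediate-early, G1/S and G2/M genes changed sign in at least 1 setting. Some lists without a median in the text did so too. No paired analysis was possible because all cells form 1 group. With depth unknown, an undetected gene cannot be told from a failed capture.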

Other observations

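A few further genes were detected in no Col10a1-negative chondrocyte although they were common elsewhere. Besides Mef2c and Foxa2, only Slc1a3 and Ttll1 were detected in none of the 29 but in at least 30% of the remaining chondrocytes, out of 829 genes detected in none of the 29. Slc1a3, which encodes a glutamate and aspartate transporter, was found in 39.5% of the latter at a mean of 4.50 where detected, and Ttll1 in 34.7% at 4.17. Tcf7l2, a transcription factor of WNT signalling, was found in 24.5% at 2.26 where detected. Aldh1a3, which makes retinoic acid, was found in 25.2% at 4.83. A count of 0 in 29 profiles allows a share of up to 10.3% at 3 counts, or 11.9% by the exact interval. At the other end, 374 genes were detected in every Col10a1-negative profile. Fewer genes were detected in every one of the remaining chondrocytes. That group holds more profiles, and a gene is less easily found in all, or in none, of a larger group. The counts of 374 and 829 therefore depend on group size and do not by themselves set the Col10a1-negative chondrocytes apart. Foxn2 was found in 29 of 29 and in 85% of the rest. This was the lowest share elsewhere among the genes detected in all 29, followed by Arglu1 and Dctn4 with 90.5% each. These genes were picked after their values were seen.

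Ank and Ucma, which are both known as inhibitors of mineralization, were the 2 of 23 mineralization and phosphate genes that were higher by at least 1 in Col10a1-negative chondrocytes. In the same list, 5 genes were lower by at least 1. Of all genes, 0.709% were higher and 6.73% lower by at least 1. Against the Ihh class, 1 gene of the list was higher by at least 1. The difference of Ank was 0.53 when repeated columns were kept apart. Ogn, a small leucine-rich proteoglycan, was higher by 1.20 (detected in 12 of 29 and 30.6% of the rest), whereas Omd, another member of that family, differed by -2.02, and by -1.25 with detected genes fitted (17 of 29 and 81% of the rest). The difference of Ogn ran from 0.50 with Col10a1 exactly 0 to 1.62 with Acan of at least 8. Creld2, which encodes a chaperone of the endoplasmic reticulum, was higher by 0.81, and by 1.59 with detected genes fitted.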
